A study of Mus musculus with 57 samples.

Results

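Phosphoethanolamine metabolism in cortical astroglia was followed through 5 genes, Etnppl, Etnk1, Pcyt2, Pisd and Pemt, of the 21118 genes in the count table. They were taken by symbol, and Etnppl was chosen by its measured rise from P1 to adult, the largest among the genes named in earlier work on these data. Its change from P1 to adult is therefore given as a description only. The tests below compare the ages between them, P4, P7, P14 and P35, which that choice did not use, and the labelled sexes.

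Phosphoethanolamine is the head group of phosphatidylethanolamine, one of the main phospholipids of brain membranes. Cells make it by phosphorylating ethanolamine or by cleaving sphingosine-1-phosphate, and pass it on to phosphatidylethanolamine through the Kennedy pathway, while mitochondria make the same lipid by decarboxylating phosphatidylserine. ETNPPL, an enzyme that needs pyridoxal phosphate (vitamin B6), breaks phosphoethanolamine down to acetaldehyde, ammonia and phosphate, and its message is known to be abundant in astrocytes of the adult brain.

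The messages measured were those bound to tagged ribosomes. All mice were C57BL/6 of the genotype Aldh1l1-L10-GFP, in which regulatory sequence of the astrocyte gene Aldh1l1 drives a fusion of green fluorescent protein with the ribosomal protein L10. The tagged ribosomes were pulled from homogenate of whole cortex with an antibody to the fluorescent protein (translating ribosome affinity purification, TRAP), so that other cells can contribute RNA that came along. No treatment separated the groups. There were 53 libraries from 53 mice, in 12 groups of labelled sex and age. The ages were P1 (postnatal day 1), P4, P7, P14, P35 and adult, for which the labels give no age in days. In this order, groups labelled female held 4, 4, 8, 5, 3 and 4 libraries and groups labelled male held 4, 4, 4, 5, 3 and 5. The first digit after the dash in a library's title (1, 2, 3, 4 or 6), or S for 4 P7 libraries sequenced in the second run alone, is called its set, and the set was a term in the model.

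Libraries held between 14768178 and 48541139 counts in all (median 24033399). Some libraries stood apart. P1 female 4, P7 female 40 and P14 male 4 had at least 10 counts in 10085 to 14530 genes, against 15531 or more elsewhere. In the libraries labelled P4 female 2, P4 male 4, P7 females 40 and S2, P7 male S2, P35 male 10 and adult male 60, 7 in all, the sex-linked counts went against the labelled sex, and in 5 the description carried the letter of the other sex. With the 4 second-run libraries, 13 of 53 libraries were doubted for at least 1 of these reasons, and the tests of age from P4 to P35 and of the earlier against the later ages are also given without them. In bulk RNA, fewer cells of a type and less of a message per cell cannot be told apart.

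Etnppl (ENSMUSG00000019232) lies on chromosome 3 at 130617448-130637521, on the plus strand of GRCm38, and is protein coding. Etnk1 (ENSMUSG00000030275), the ethanolamine kinase that makes phosphoethanolamine, lies on chromosome 6 at 143167221-143232307 on the plus strand. These were the only 2 of the 5 genes that rose from P4 to P35, and their promoter windows are shown because they differ widely in CG dinucleotides. Each window covers 240 bases, from 250 to 11 bases before a start that RefSeq annotates on GRCm38.p6, outside the exons of the gene annotation, and capitals mark each CG.
Etnppl, chr3:130617198-130617437, plus strand: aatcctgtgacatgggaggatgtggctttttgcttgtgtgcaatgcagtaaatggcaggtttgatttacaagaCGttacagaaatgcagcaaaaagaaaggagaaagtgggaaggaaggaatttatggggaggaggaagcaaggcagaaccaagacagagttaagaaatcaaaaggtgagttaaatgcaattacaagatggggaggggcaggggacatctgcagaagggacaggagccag
Etnk1, chr6:143166980-143167219, plus strand: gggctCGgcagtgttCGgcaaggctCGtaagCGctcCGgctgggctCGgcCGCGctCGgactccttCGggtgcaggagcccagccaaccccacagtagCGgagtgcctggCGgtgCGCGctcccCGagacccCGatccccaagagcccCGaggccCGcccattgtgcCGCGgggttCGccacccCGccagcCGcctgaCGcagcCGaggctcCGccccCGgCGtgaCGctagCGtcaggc
The printed Etnppl window held 1 CG and 45.4% G and C, and the Etnk1 window held 30 CG and 74.6%. Over 32851 windows of the same length from 27025 genes, the median was 5 CG and 52.1% G and C, and 30.3% of windows held 2 CG or fewer. On either strand, the TATA box letters TATAAA, in 12.1% of all windows, were in neither. TTGGC, the core of the site bound by nuclear factor I proteins and present in 40.3% of all windows, occurred once in the Etnk1 window and not in the printed one of Etnppl. RefSeq annotates a second start of Etnppl, whose window (chr3:130617325-130617564) overlaps the printed one and held 1 CG, 1 TTGGC and no TATAAA. Such matches describe letters only.

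Etnppl was close to undetected in the first postnatal week and reached 9.26 CPM or more in every adult library. CPM are counts scaled to a common library total, with the libraries scaled by the trimmed mean of M-values. At P1 the 8 libraries ran from 0 to 3.11 CPM with a median of 0.0170 CPM. At P4 they ran from 0 to 5.44 CPM with a median of 0.0927 CPM, and the 12 libraries of P7 ran from 0 to 2.86 CPM with a median of 0.156 CPM. Within these 3 ages, 4, 2 and 4 libraries held no Etnppl count at all, where 3 counts, the limit that a count of 0 allows, would be between 0.105 and 0.186 CPM. Only P1 female 1 (3.11 CPM), P4 male 1 (5.44 CPM), P7 male 6 (2.86 CPM) and P7 male S1 (1.38 CPM) reached 1 CPM.

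At P14 the level of Etnppl varied widely between animals, at 17.65 ± 19.97 CPM (SD, n = 10). The 5 libraries labelled female held 8.01, 57.5, 47.7, 12.8 and 1.25 CPM of Etnppl in sets 1, 2, 3, 4 and 6, and the 5 labelled male held 9.18, 9.75, 26.6, 3.34 and 0.406 CPM in the same order. The highest and lowest of the 10 were thus P14 female 2 and P14 male 6, and both libraries of set 6 were the lowest of their sex. All but P14 male 6 passed 1 CPM.

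By P35 every library carried the message. Etnppl stood at 36.1 CPM in P35 female 3, 103 CPM in female 4 and 14.2 CPM in female 6, and at 96.0, 67.5 and 24.6 CPM in males 1, 10 and 3. Adult females 1 to 4 held 86.2, 114, 56.3 and 31.9 CPM of Etnppl, and adult males 1, 2, 3, 4 and 60 held 81.5, 48.5, 81.5, 108 and 9.26 CPM. The lowest library at both ages was again the one of set 6. Ranges of neighbouring ages overlapped throughout, whereas the highest P4 library lay below the lowest P35 library.

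**Figure D1:**
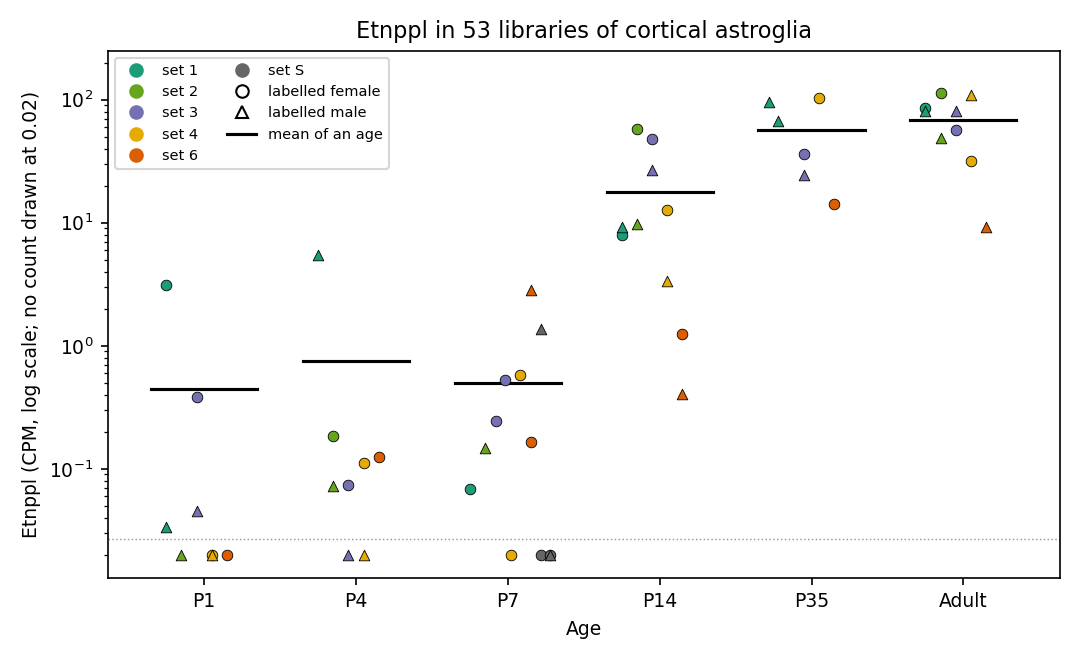
Etnppl level of each library (CPM, logarithmic axis) by age, with colours for the replicate sets, circles for labelled females, triangles for labelled males and bars for the mean of an age. Libraries with no count are drawn at 0.02, below the dotted line. All 6 libraries of P35 and 9 of 10 of P14 lie above 1 CPM, against 1 of 8 at P1, 1 of 8 at P4 and 2 of 12 at P7.

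From P4 to P35, Etnppl rose by 7.18 ± 0.99 on the log2 scale (SE), an estimated 145-fold, from 0.751 ± 1.90 CPM (SD, n = 8) to 56.9 ± 37.5 CPM (SD, n = 6), with an adjusted p of 4.21e-07 (edgeR quasi-likelihood F test, Benjamini-Hochberg over all genes). In this comparison 2 of the 5 genes rose and none fell, where 27.9% of all genes tested were called, 13.8% upward and 14.0% downward. The median change of the 5 genes was 0.01 on the log2 scale, as was that of all genes. Etnppl was the 1 gene of the 5 whose P4 and P35 libraries did not overlap. Of all genes, 7.39% had no overlap, with 3.08% of all genes higher at P35 and 4.31% lower.

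The size of the rise rested in part on 1 library. Without P4 male 1 the change from P4 to P35 was 9.79 on the log2 scale, and leaving out any other library of these ages gave 6.77 to 7.47. Without the 13 doubted libraries it was 7.00 (adjusted p = 5.83e-06, edgeR). Within single sets, the difference in mean Etnppl between P35 and P4 was 3.87 in set 1, 8.09 in set 3, 9.71 in set 4 and 6.13 in set 6 on the log2 scale, with 1 or 2 libraries at each age. All 4 sets that had libraries of both ages were thus higher at P35.

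The same gene was followed step by step. From P4 and P7 together to P14 and P35 together, Etnppl rose by 5.14 ± 0.76 on the log2 scale (adjusted p = 1.31e-06, edgeR), where 28.4% of all genes were called, 14.0% upward, and it rose by 6.44 without P4 male 1 and by 6.11 without P7 male 6. No single step passed the test. Etnppl differed by 2.35 ± 1.06 from P4 to P7 (adjusted p = 0.309, edgeR), where 1.67% of genes were called. That fitted step rests on few counts, 169 at P4 and 209 at P7 over all libraries of the age. Mean CPM went the other way, from 0.751 to 0.498, while median CPM went from 0.0927 to 0.156. The step from P7 to P14 was 3.11 ± 1.00 (adjusted p = 0.0720), where 3.30% were called, and that from P14 to P35 was 1.72 ± 0.78 (adjusted p = 0.286), where 1.15% were called. The P7 to P14 step did pass with DESeq2 (2.96, adjusted p = 0.0252), with limma voom (4.64, adjusted p = 0.00193), in a fit of ages without sex (4.21, adjusted p = 0.0171) and without the 3 libraries of few genes (3.25, adjusted p = 0.0284). It also passed without P14 male 6 (3.43, adjusted p = 0.0375) or P7 male 6 (4.97, adjusted p = 0.0339), and the P4 to P7 step passed without P4 male 1 (4.63, adjusted p = 0.0333).

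The description that led to the choice of Etnppl reads as follows in this fit. From P1 to adult it differed by 9.42 ± 1.11 on the log2 scale (SE), between 0.447 ± 1.09 CPM (SD, n = 8) and 68.6 ± 34.8 CPM (SD, n = 9). The other genes differed by 0.92 ± 0.20 for Etnk1, 0.56 ± 0.17 for Pisd, 0.42 ± 0.14 for Pcyt2 and -0.03 ± 0.50 for Pemt. No test is given for these values.

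Markers of mature astrocytes rose over the same ages. Of 26 such genes 19 rose from P4 to P35 and none fell, where 13.8% of all genes rose. Their median change was 1.34 on the log2 scale against 0.01 for all genes, and Etnppl changed more than each of them. The marker that changed most was Gjb6, a connexin of astrocyte gap junctions, at 4.31. Aldh1l1 itself, which drives the tag, differed by -0.40 (adjusted p = 0.366, edgeR). The summed astrocyte markers ran from 2186 to 9927 CPM at P4 and from 5507 to 36810 CPM at P35. Set against that sum, Etnppl had a median of 0.0201 CPM per 1000 CPM of markers at P4 (range 0 to 0.548), 0.0354 at P7, 0.495 at P14, 2.90 at P35 (range 2.58 to 4.17) and 2.75 in adults. The P4 and P35 ranges of this ratio did not overlap, and P35 libraries lay closer together in it than in CPM. In the P35 library of set 6, the one lowest in Etnppl, the marker sum was 5507 CPM.

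Genes of some other cells moved with age as well. All 15 oligodendrocyte and myelin markers rose from P4 to P35 (median 3.77 on the log2 scale), and their sum ran from 198 to 387 CPM at P4 and from 947 to 3567 CPM at P35. Of 20 neuronal markers, 13 rose and 4 fell (median 1.38), and their sum ran from 2398 to 10800 CPM at P4 and from 2505 to 27810 CPM at P35. All 12 cell cycle genes fell (median -4.20). Of 11 microglial markers 2 rose and of 11 endothelial and mural markers 4 rose, with none falling. Over all genes, 13.8% rose and 14.0% fell, and the microglial count is near that share. Of 7 markers of oligodendrocyte progenitors, 2 rose and 2 fell. The most often empty markers were Itgam of microglia, with no count in 22 libraries, and Opalin of oligodendrocytes and the cell cycle gene Bub1, each with no count in 10. The part of these cells in the values of Etnppl and of the other genes was not tested.

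Etnk1 phosphorylates ethanolamine, the first step of the Kennedy pathway. It rose from P4 to P35 by 1.09 ± 0.22 on the log2 scale (SE; adjusted p = 1.65e-04, edgeR), from 69.4 ± 40.3 CPM (SD, n = 8) to 164 ± 105 CPM (SD, n = 6). At P4 the libraries labelled female held 39.6, 119, 28.3 and 116 CPM of Etnk1 in sets 2, 3, 4 and 6, and those labelled male held 47.8, 51.9, 118 and 35.5 CPM in sets 1, 2, 3 and 4. At P35, females 3, 4 and 6 held 299, 88.8 and 148 CPM and males 1, 10 and 3 held 66.3, 90.2 and 289 CPM. The 2 ages overlapped, because sets 3 and 6 were high at P4 and the other sets were low at P35.

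Inside each set Etnk1 was higher at P35 than at P4, by 0.69, 1.32, 1.49 and 0.36 on the log2 scale in sets 1, 3, 4 and 6. Its call depended on the set being in the model. With no replicate block the estimate was 1.24 and the adjusted p was 0.0775. Without the 13 doubted libraries it was 0.99 (adjusted p = 4.10e-04, edgeR).

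Etnk1 also rose from P14 to P35, by 0.81 ± 0.21 on the log2 scale (adjusted p = 0.0371, edgeR), the only 1 of the 5 genes called in a single step, where 0.336% of all genes rose. That call was lost in 11 of the 16 fits that left out 1 library of these ages, with adjusted p from 0.0600 to 0.145, namely without P14 females 1, 3, 4 and 6, P14 males 4 and 6, P35 females 3, 4 and 6 or P35 males 10 and 3. The other libraries of P14 and P35 could be left out singly with the call kept. From P4 and P7 to P14 and P35 Etnk1 rose by 0.44 ± 0.15 (adjusted p = 0.0231), which was lost without P7 male 2 (adjusted p = 0.0639), P14 female 2 (0.0640) or P35 female 4 (0.0534). Both calls also ended with no replicate block (adjusted p = 0.588 from P14 to P35 and 0.476 from the earlier to the later ages), without the libraries of the other sex's letter (0.129 and 0.0594) and without those whose sex-linked counts go against the label (0.155 and 0.111). The steps from P4 to P7 (0.50 ± 0.21, adjusted p = 0.266) and from P7 to P14 (-0.22 ± 0.20, adjusted p = 0.641) did not pass.

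Over the other ages Etnk1 also varied widely between libraries. At P1 the 8 libraries ran from 30.7 to 149 CPM with a median of 51.0 CPM, and at P7 the 12 ran from 29.9 to 299 CPM with a median of 147 CPM. At P14 the 10 ran from 20.3 to 162 CPM with a median of 74.9 CPM, and in adults the 9 ran from 60.3 to 306 CPM with a median of 89.3 CPM. The highest library was of set 3 at each of these ages except P7, where it was of set S. Etnk2, the second ethanolamine kinase, differed by 0.53 ± 0.40 on the log2 scale from P4 to P35 (adjusted p = 0.345, edgeR).

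Pcyt2 (ENSMUSG00000025137, chromosome 11 at 120610087-120617936, minus strand) encodes the enzyme that activates phosphoethanolamine with CTP, the step that usually limits the ethanolamine branch. The P4 libraries ran from 101 to 162 CPM with a median of 125 CPM, and the P35 libraries from 74.4 to 137 CPM with a median of 121 CPM. Pcyt2 differed by -0.25 ± 0.16 on the log2 scale from P4 to P35 (adjusted p = 0.272, edgeR) and by -0.18 ± 0.11 from the 2 earlier to the 2 later ages (adjusted p = 0.217). Its lowest values were at P1, from 37.9 CPM in P1 female 4, a library of few genes, to 106 CPM in P1 female 1, and the highest library was P7 female 40 at 206 CPM. P14 ran from 83.4 to 167 CPM and adults from 78.4 to 148 CPM, so that all ages overlapped with their neighbours.

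Pisd (ENSMUSG00000023452, chromosome 5 at 32736301-32785646, minus strand) encodes the mitochondrial decarboxylase that turns phosphatidylserine into phosphatidylethanolamine. At P4 the libraries labelled female held 66.5, 45.7, 95.1 and 42.0 CPM of Pisd in sets 2, 3, 4 and 6, and the libraries labelled male 80.0, 87.2, 40.0 and 68.0 CPM in sets 1, 2, 3 and 4. At P35 females 3, 4 and 6 held 48.7, 98.8 and 13.7 CPM, and males 1, 10 and 3 held 116, 86.1 and 50.4 CPM. Here sets 3 and 6 were the low ones, opposite to Etnk1. Pisd differed by 0.01 ± 0.19 on the log2 scale from P4 to P35 (adjusted p = 0.990, edgeR), and the difference was 0.32, 0.21 and 0.30 within sets 1, 3 and 4 and -1.61 in set 6, where P35 female 6 is the single later library.

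Over the other ages Pisd ran from 34.7 to 71.5 CPM at P1, from 30.5 to 88.3 CPM at P7, from 28.7 to 126 CPM at P14 and from 34.1 to 123 CPM in adults. The step from P7 to P14 was 0.42 ± 0.18 on the log2 scale (adjusted p = 0.185, edgeR). The comparison of the earlier with the later ages gave 0.21 ± 0.13 (adjusted p = 0.228), and 0.31 without P35 female 6 (adjusted p = 0.0461). Pisd counts are uncertain, since its transcripts share 743 bases at 95.3% identity with the pseudogene Pisd-ps1 and 690 bases at 95.7% with Pisd-ps2, both of which have rows of their own in the table. A further 1162 bases were identical to the overlapping gene model Gm20671, which is not in the table.

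Pemt (ENSMUSG00000000301, chromosome 11 at 59970614-60046489, minus strand) encodes the enzyme that methylates phosphatidylethanolamine to phosphatidylcholine, best known from liver. It was scarce. At P4 the libraries ran from 2.87 to 12.5 CPM with a median of 7.49 CPM, and at P35 from 0.232 to 4.90 CPM with a median of 2.92 CPM. Means were 7.50 ± 3.67 CPM (SD, n = 8) and 2.80 ± 1.87 CPM (SD, n = 6), and the ages overlapped between 2.87 and 4.90 CPM. Pemt differed by -1.40 ± 0.59 on the log2 scale from P4 to P35, which did not pass (adjusted p = 0.0688, edgeR).

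The estimate for Pemt moved little between fits, but its side of the threshold did not stay the same. It passed without the 3 libraries of few genes, none of which is of P4 or P35 (-1.37, adjusted p = 0.00179), without all 13 doubted libraries (-1.37, adjusted p = 0.00426) and with DESeq2 (-1.33, adjusted p = 0.0399). Without any single library of P4 or P35 it did not pass (adjusted p from 0.0693 to 0.174). Within sets 1, 3, 4 and 6 the difference of P35 from P4 was -0.52, -0.78, -1.80 and -3.77 on the log2 scale. The single libraries farthest from the others were P14 male 4 at 22.1 CPM, a library of few genes, and P1 female 4, with no Pemt count. Pemt ran from 0 to 8.73 CPM at P1, from 0.262 to 11.7 CPM at P7, from 2.87 to 22.1 CPM at P14 and from 2.11 to 7.33 CPM in adults.

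**Figure D2:**
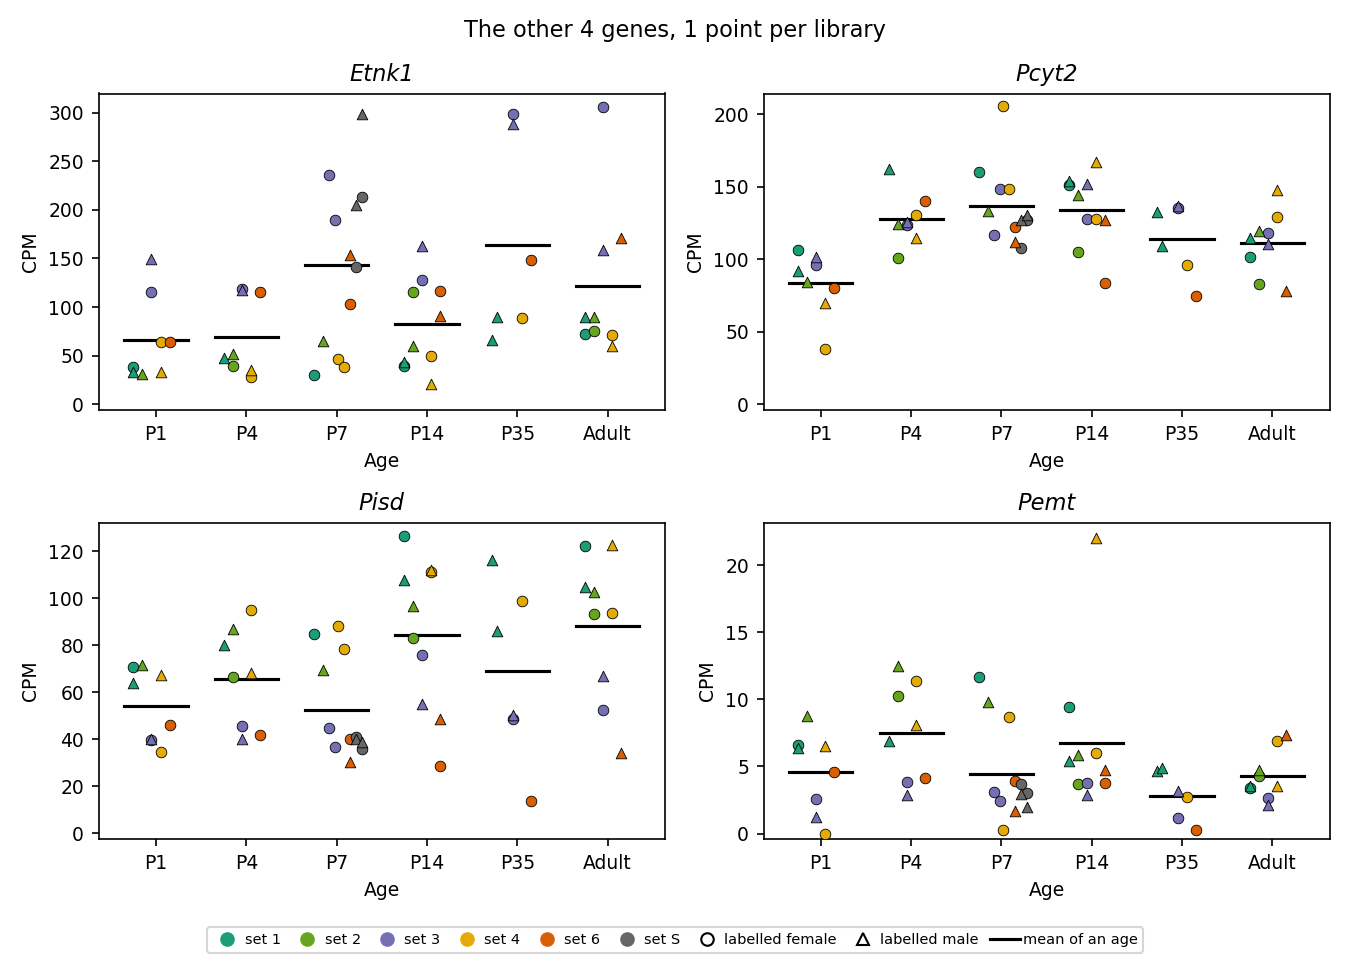
Levels of Etnk1, Pcyt2, Pisd and Pemt in each library (CPM, linear axes from 0) by age, with the same colours and symbols and bars for the mean of an age. Etnk1 is high and Pisd low in sets 3 and 6 at most ages, and Pcyt2 stays between 37.9 and 206 CPM.

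Levels of different genes can be compared per kilobase of exon. On this scale Pcyt2 was the highest of the 5 at each age, from 19.2 ± 5.04 CPM per kb at P1 (SD, n = 8) to 31.4 ± 6.19 at P7 (SD, n = 12). At P4, Pisd stood at 11.4 ± 3.69, Etnk1 at 4.90 ± 2.85, Pemt at 3.57 ± 1.74 and Etnppl at 0.0909 ± 0.230 CPM per kb (SD, n = 8). At P35 Etnppl had reached 6.88 ± 4.54 CPM per kb (SD, n = 6), between Etnk1 and Pisd on one side, at 11.6 ± 7.39 and 12.0 ± 6.62, and Pemt at 1.33 ± 0.888 on the other. Etnppl thus moved from the last place of the 5 to the fourth, and in adults its 8.30 ± 4.22 CPM per kb (SD, n = 9) differed from the 8.58 ± 5.62 of Etnk1 by less than the spread. Phykpl, the paralog of Etnppl that acts on phosphohydroxylysine, was at 0.899 ± 0.144 CPM per kb at P4 and 0.866 ± 0.305 at P35, and differed by -0.10 ± 0.30 on the log2 scale (adjusted p = 0.847, edgeR).

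Around these 5 genes, 49 others of the same metabolism were measured in 10 lists, and Phospho1, Flvcr1 and Pdxp were not analysed here. From P4 to P35, 13 of the 49 rose, 5 fell and 31 did not pass, with a median of 0.27 on the log2 scale against 0.01 for all genes and the 27.9% called over all genes. In the list of phosphoethanolamine sources and sinks, 2 of 7 rose, Etnppl and Sgpp2, a phosphatase of sphingosine-1-phosphate (2.40 ± 0.93, adjusted p = 0.0480, edgeR), with a list median of -0.10. Sphk2, a sphingosine kinase, differed by -0.68 ± 0.36 (adjusted p = 0.166) and did not pass. Sgpl1, the lyase that releases phosphoethanolamine from sphingosine-1-phosphate, was at 12.5 ± 3.75 CPM (SD, n = 8) and 11.9 ± 5.44 CPM (SD, n = 6).

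The 2 branches of the Kennedy pathway were lists of only 5 genes each. Over all genes, 13.8% rose and 14.0% fell from P4 to P35. In the ethanolamine branch 1 of 5 genes rose, Etnk1, with a median of 0.42 on the log2 scale, and Ept1 and Cept1, which complete phosphatidylethanolamine, did not pass. In the choline branch 1 of 5 rose and 2 fell, with a median of -0.23. Chpt1, the last enzyme of phosphatidylcholine synthesis, rose by 1.64 ± 0.43 (adjusted p = 0.00322, edgeR). The choline kinase Chkb fell by 0.51 on the log2 scale (adjusted p = 0.0271), and Pcyt1b, which activates phosphocholine as Pcyt2 does phosphoethanolamine, fell by 0.57 (adjusted p = 0.0244).

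Of 7 genes of the phosphatidylserine route and of phosphatidylethanolamine methylation none rose and 1 fell, Triap1, a partner in lipid transfer inside mitochondria (-0.64 ± 0.16, adjusted p = 0.00202, edgeR), with a median of 0.07. Slmo1, of the same transfer proteins, differed by 0.46 ± 0.18 (adjusted p = 0.0541). Of 6 genes of ethanolamine and choline uptake 1 rose, the choline transporter Slc44a1 (0.70 ± 0.25, adjusted p = 0.0329), with a median of 0.61, and its relatives Slc44a4 (2.01 ± 1.14) and Slc44a2 (0.52 ± 0.50) did not pass. Among 5 genes of plasmalogen synthesis, which yields ether-linked phosphatidylethanolamine, the desaturase Tmem189 rose by 1.28 ± 0.38 (adjusted p = 0.00916), the reductase Far2 fell by 1.52 on the log2 scale (adjusted p = 0.00414), and the median was -0.33. Agps of this list differed by -0.33 ± 0.17 and did not pass. The counts of these lists stand beside 13.8% of all genes upward and 14.0% downward.

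Beside 13.8% of all genes upward, 2 of 6 genes of N-acyl ethanolamine handling rose and none fell, with a median of 0.63. These were Napepld, which releases N-acyl ethanolamines from membrane lipid (1.40 ± 0.48, adjusted p = 0.0245, edgeR), and Naaa, which hydrolyses them (1.16 ± 0.44, adjusted p = 0.0451). Faah, another hydrolase, differed by 0.96 ± 0.38 (adjusted p = 0.0556). Of 4 genes that add phosphoethanolamine to GPI anchors 1 rose, Pigg (2.23 ± 0.78, adjusted p = 0.0283), with a median of 0.04, while Pigo (0.65 ± 0.45) and Pigf (-0.57 ± 0.40) did not pass.

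The cofactor and the products of ETNPPL were covered by 2 lists. Both genes reported here for pyridoxal phosphate supply rose, with a median of 0.76 on the log2 scale. Pdxk, pyridoxal kinase, rose by 0.93 ± 0.19 (adjusted p = 2.53e-04, edgeR) and Prosc, a pyridoxal phosphate binding protein, by 0.58 ± 0.15 (adjusted p = 0.00294). Of 7 genes for acetaldehyde, acetate and ammonia, 4 rose and 1 fell, with a median of 0.68. Over all genes, 13.8% rose and 14.0% fell.

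Aldh1a1, a cytosolic aldehyde dehydrogenase, went from 22.7 ± 22.7 CPM (SD, n = 8) to 496 ± 372 CPM (SD, n = 6), a rise of 4.32 ± 0.52 on the log2 scale (adjusted p = 3.96e-08, edgeR). Glul, glutamine synthetase, which binds ammonia and is also among the astrocyte markers, rose by 2.08 ± 0.33 (adjusted p = 4.62e-06). Aldh2, a mitochondrial aldehyde dehydrogenase, rose by 0.68 ± 0.24 (adjusted p = 0.0274) and Acss2, an acetyl-CoA synthetase, by 0.72 ± 0.21 (adjusted p = 0.00916). Aldh1b1, another mitochondrial aldehyde dehydrogenase, fell by 2.22 on the log2 scale (adjusted p = 7.92e-07). In the single steps, 1 of the 49 genes was called from P4 to P7, 3 from P7 to P14 and 1 from P14 to P35, against the 1.67%, 3.30% and 1.15% of all genes called.

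**Figure D3:**
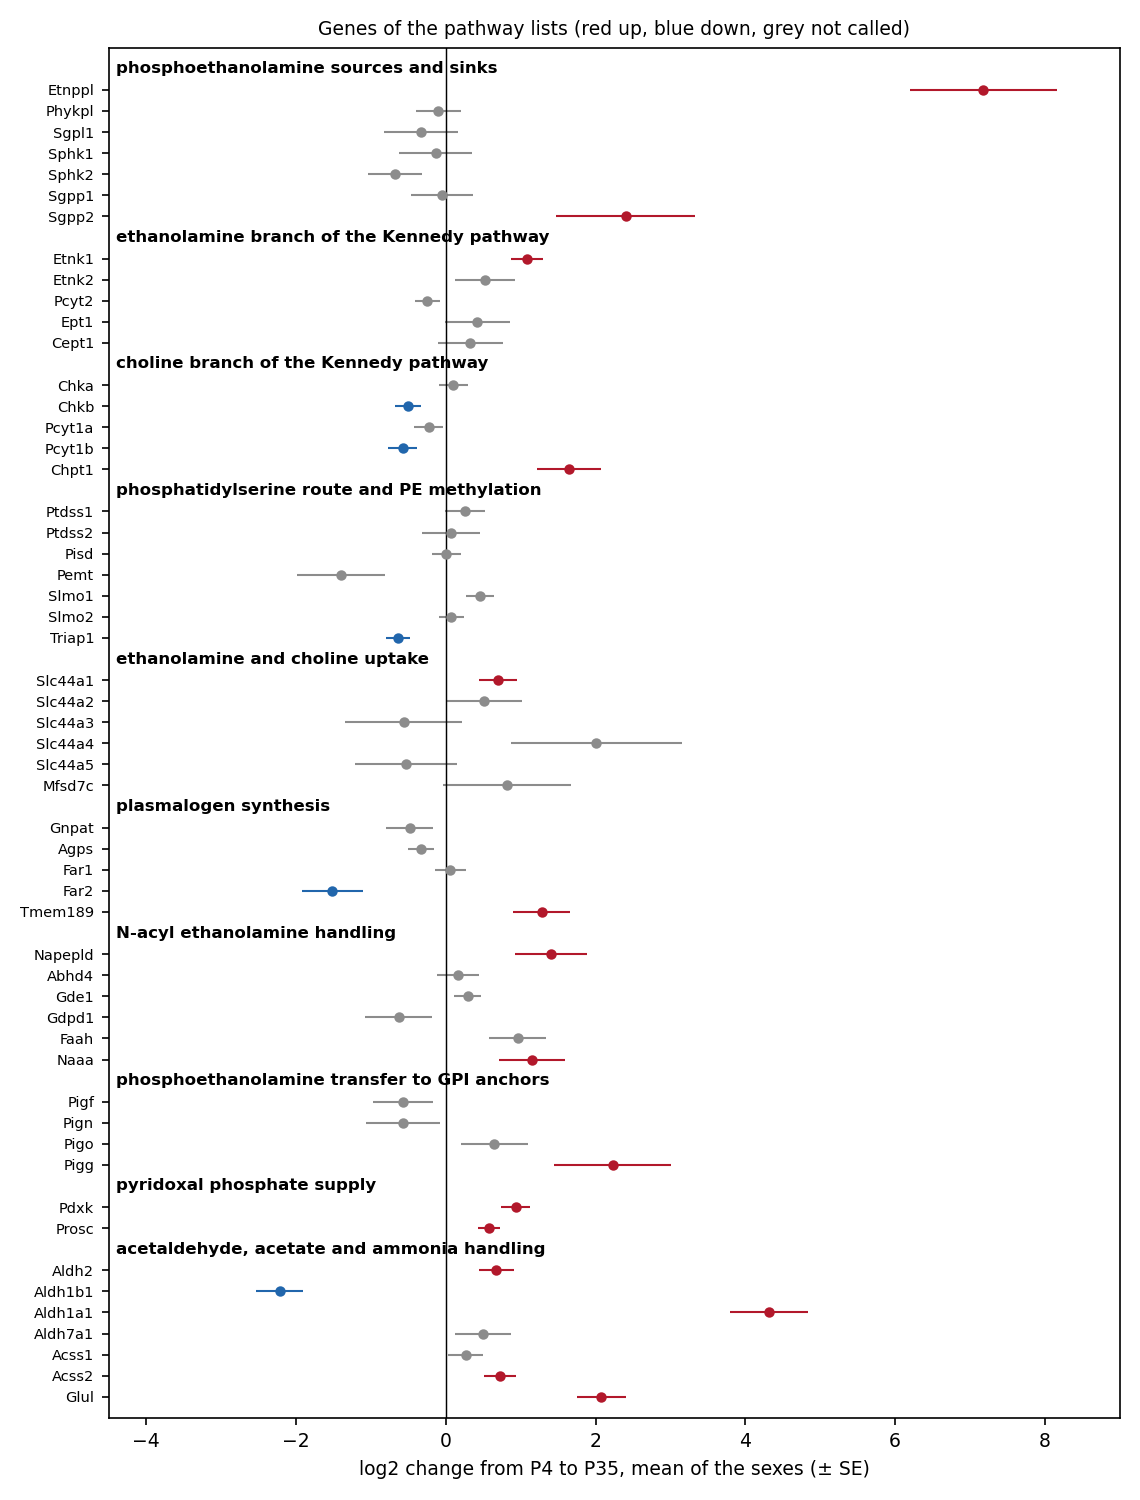
Change from P4 to P35 of each gene in the 10 pathway lists, the 5 genes included (points, log2 scale, mean of the labelled sexes; lines, SE). Red points rose, blue points fell and grey points did not pass the adjusted threshold of 0.05; Etnppl at 7.18 and Aldh1a1 at 4.32 lie farthest to the right.

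In the edgeR fit of all libraries, labelled sex separated none of the 5 genes past the threshold. Over the mean of the 6 ages, females minus males was 0.24 ± 0.54 for Etnppl, 0.06 ± 0.12 for Etnk1, -0.12 ± 0.09 for Pcyt2, -0.03 ± 0.10 for Pisd and -0.34 ± 0.30 for Pemt on the log2 scale, each with an adjusted p of 1.00 (edgeR), where 0.0284% of all genes were called. Within an age no gene of the table passed in edgeR, Xist and the Y-linked genes included. There 329 to 1350 genes had an unadjusted p under 0.05, and DESeq2 called 60 to 272. These tests missed sex-linked genes, so they cannot show that the 5 genes are alike in the sexes. Without the libraries whose sex-linked counts go against the label, edgeR called 4, 4, 5, 5 and 1 genes at P1, P4, P7, P14 and P35. Etnppl at P1 differed by 5.03 ± 1.85 on the log2 scale (females minus males, adjusted p = 0.481, edgeR), on 88 counts in the 4 libraries labelled female, 77 of them in P1 female 1, and 2 counts in the 4 labelled male. At P7 its 8 libraries labelled female ran from 0 to 0.582 CPM with a median of 0.117 CPM, and the 4 labelled male held 0.147, 2.86, 1.38 and 0 CPM.

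Only P7 males 6 and S1 lay above all P7 females. The libraries labelled P7 male S2, P7 female S2 and P7 female 40, whose sex-linked counts go against the label, had no Etnppl count, and without the 7 libraries of this kind the difference was -4.39 (adjusted p = 0.901, edgeR). The difference was -4.69 ± 1.23 on the log2 scale, with an unadjusted p of 4.20e-04 and an adjusted p of 0.403 in edgeR. Over the other fits of several libraries it ran from -2.37 to -4.93, the latter with DESeq2 (adjusted p = 0.0459). With single P7 libraries left out it ran from -1.40 to -6.01, the latter without P7 male 2 (adjusted p = 0.0414, edgeR). The change of Etnppl from P7 to P14 differed between the sexes by 6.19 ± 1.56 (females minus males, adjusted p = 0.549 in edgeR and 0.0410 in DESeq2), and that from P4 to P35 by 3.39 ± 1.84 (adjusted p = 1.00), which became -1.71 without P4 male 1. No gene passed either interaction test in edgeR, while DESeq2 called 95 and 135.

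The replicate set separated most of the 5 genes, as it did most genes of the table. With sex and age in the model, 69.1% of all genes differed between the sets, and of the 5 genes Etnk1 (adjusted p = 1.54e-13, edgeR), Pisd (2.08e-09), Etnppl (0.0285) and Pemt (0.0450) were called, while Pcyt2 was not (0.0798). Against set 1, set 6 was lower in Etnppl, at -3.96 ± 1.10 on the log2 scale (adjusted p = 0.00408), with 34.3% of all genes called. The 4 libraries of set S, all of P7, were at -5.17 ± 1.64 in Etnppl (adjusted p = 0.0131), with 32.6% of genes called. This is an estimate of the model from few counts, and the P7 levels themselves did not show such a gap. P7 male S1 held 1.38 CPM and the others of set S 0, against 0.0687 CPM in P7 female 10, the only P7 library of set 1. Sets 2, 3 and 4 were at -1.33, -1.20 and -1.89 and did not pass.

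Etnk1 and Pisd moved in opposite directions between the sets. Etnk1 was higher than in set 1 by 1.86 ± 0.18 in set 3, 1.22 ± 0.21 in set 6 and 2.01 ± 0.29 in set S on the log2 scale (adjusted p = 5.36e-11, 9.43e-06 and 6.26e-07, edgeR). Pisd stood at -0.90 ± 0.15, -1.38 ± 0.18 and -1.10 ± 0.26 in the same sets (adjusted p = 3.57e-06, 8.83e-08 and 9.14e-04). Pemt was at -1.19 ± 0.45 in set 3 (adjusted p = 0.0228), and Pcyt2 at -0.43 ± 0.15 in set 6 (adjusted p = 0.0241). In set 3, 53.0% of all genes were called, in set 4 17.9%, with none of the 5 genes, and in set 2 none of the table in edgeR, where 1126 genes had an unadjusted p under 0.05 and DESeq2 called 81.

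The marker sums differed between the sets too. Neuronal markers had a median sum of 2838 CPM in set 1 (range 1871 to 5322), 9044 in set 3 (6412 to 11200), 15240 in set 6 (8178 to 27810) and 10040 in set S (7327 to 12440). Mature astrocyte markers had medians of 22350 CPM in set 1 (7190 to 36810), 5206 in set 3 (1488 to 19820), 3470 in set 6 (1338 to 5920) and 4204 in set S (1730 to 5838). Set 2 stood at 3556 CPM of neuronal and 12780 CPM of astrocyte markers, and set 4 at 5973 and 8694 CPM. Set 4 was above set 1 in neuronal and below it in astrocyte markers. These medians pool ages, and set S holds P7 only. The part of neuronal RNA in these differences was not tested.

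**Figure D4:**
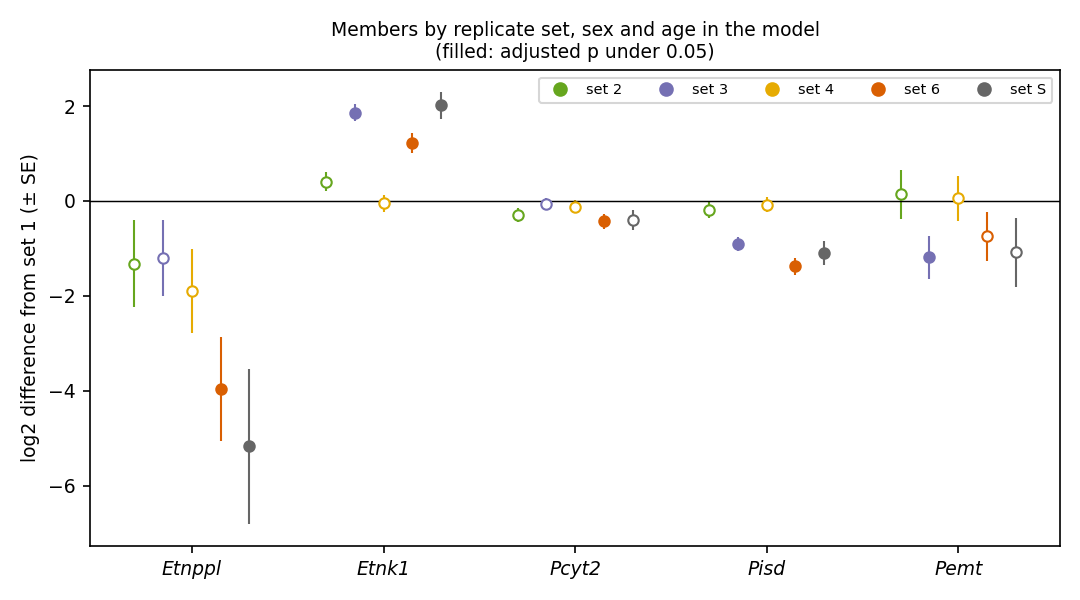
Difference of each replicate set from set 1 in the 5 genes (points, log2 scale, with sex and age in the model; lines, SE). Filled points passed the adjusted threshold of 0.05. Etnk1 is above 0 and Pisd below 0 in sets 3, 6 and S. The fitted Etnppl value is lowest in sets 6 and S, and in S it rests on few counts.

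Finally, the genes whose pattern over the 12 groups was most like that of each member were listed among 12181 genes, by Pearson's r over the 12 group means of log2 CPM with the set removed. For Etnppl these were Sod3 (r = 0.995), an extracellular superoxide dismutase, Tmem88b (0.990), Clu (0.989), a secreted chaperone, Opalin (0.989), a myelin protein, BC029722 (0.989), Prnp (0.989), the prion protein, Olfm1 (0.986), a secreted olfactomedin, and Wipf3 (0.985). All rose by 1.42 to 7.10 on the log2 scale from P4 to P35. Opalin went from 0.0801 CPM at P4 to 15.3 CPM at P35, and Clu, one of the astrocyte markers, from 99.2 to 665 CPM. The groups share sets and ages, so that genes rising with age can score high, and the order is a description. Without removing the set, 5 of the 8 stayed among the 8 most alike, and with Spearman's rho none did.

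For Etnk1 the most alike genes were Kif5a (r = 0.984), a kinesin of axonal transport, Myo5a (0.979), a myosin motor, and Pip4k2c (0.961), a lipid kinase. For Pcyt2 they were Nsmf (0.944), Adcyap1 (0.942) and Lgr6 (0.936), for Pisd they were Prdx1 (0.964), Cebpd (0.949) and Pstpip1 (0.946), and for Pemt they were Tm9sf1 (0.928), Pdgfc (0.922) and Polm (0.919). Among the members themselves, the group means of Etnppl gave r = 0.856 with Etnk1, 0.544 with Pisd, 0.0595 with Pcyt2 and -0.281 with Pemt over the 12 groups.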

How the data were processed

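Ribosome-bound RNA of cortical astroglia was measured by TRAP and RNA sequencing in 53 mice. The authors deposited raw counts of reads per gene as 1 table of integers, and the labels name each library as a separate animal. The submitters' processing notes name CASAVA, HISAT2, SAMtools, featureCounts and the build GRCm38.p5, with no versions. For the annotation release and the strand setting, the answer is not given in the sources used here. Libraries were stranded per the labels' protocols. Of the animals, 4 were sequenced in 2 runs and have 1 column each. The table holds no gene with fewer than 50 counts in all, so scarcer genes were not analysed here. Gene positions and exon lengths came from GENCODE M21 on GRCm38, with 21021 of 21118 identifiers found, 20198 of them with the same symbol.

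Tests used edgeR 4.0.16 under R 4.3.3 (TMM, robust quasi-likelihood F test, Benjamini-Hochberg over 21118 genes, threshold 0.05) in 1 fit of all libraries, with 12 groups of age and sex and the replicate set as terms. Age changes are means of the sexes. Filtering by edgeR's rule for low counts left all genes in. CPM use TMM-scaled library sizes, and log2 levels a prior count of 2. Depth limits Etnppl at young ages, and limits from 3 counts cover counting error only. The set was in the model because the definition of the members puts it there. Libraries of the same set in different groups deviated together with a median r of 0.346 over 223 pairs, over 0.1 in 201 of them, against a median of -0.0798 over 1055 pairs of different sets. Of the 5 symbols, 4 matched the RefSeq promoter table. Alternatives were DESeq2 1.42.0, voom of limma 3.58.1, DESeq2's size factors, other filters, no set term, ages without sex, and leaving out doubted or single libraries. The fit was tested on simulated data without set effects, from P4 to P35. It recovered 51 of 100 changes of 1 on the log2 scale and 97 of 100 changes of 2. Of its calls, 5.13% were false. A change of 1 can therefore be missed.

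Members and lists were chosen with earlier results of these data known, and 1 gene of the lists is not reported here. Genes named are the 5 members, those called from P4 to P35 in each list (filled up to 3 by adjusted p), Phykpl, Sgpl1, Ept1 and Cept1 for their roles, and the 8 or 3 genes most alike in pattern among those with a highest group mean of at least 5 CPM, predicted genes left out.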

Additional observations from a re-analysis of the deposited data

Results flagged for a closer look

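In 10 groups of 4 to 8 libraries, each of the 5 genes was examined for a single library far from the rest. The rule was Dixon's gap over range at the 95% level, which flags about 1 in 20 groups by chance if values are normally distributed. It was applied to linear CPM, which cannot fall below 0, so the share flagged by chance is not known here. Of 50 such comparisons 6 were met, and no cause was tested. Etnppl stood apart in P4 male 1 (5.44 CPM, next highest 0.0723 CPM) and in P1 female 1 (3.11 CPM, next 0.386 CPM), both of set 1. Etnk1 stood apart in P1 male 3 (149 CPM, next 33.5 CPM) and in adult female 3 (306 CPM, next 74.9 CPM), both of set 3. Pemt stood apart in P14 male 4 (22.1 CPM, next 5.88 CPM), a library of few genes, and in P7 male 2 (9.79 CPM, next 2.94 CPM).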

How the results depend on the processing

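Etnppl rose from P4 to P35 under each of 12 alternatives (6.89 to 8.44 on the log2 scale, adjusted p at most 3.0e-05) and from the 2 earlier to the 2 later ages (4.88 to 6.54). Among these, dropping the filter on low counts gave the main fit again, since that filter removed no gene. It is therefore no separate check. With no replicate block, the genes called fell to 3239 from P4 to P35, 32 from P4 to P7, 4 from P7 to P14, 5 from P14 to P35 and 3252 from the earlier to the later ages, with 4 for sex at P7. Without the block Etnk1 was at 1.24 (adjusted p = 0.0775), 0.99 from P14 to P35 (0.588) and 0.40 from the earlier to the later ages (0.476), and the Etnppl sex mean turned to -0.018; it changed no other call of the 5 genes. The set numbers do not by themselves show paired animals, since some same-set pairs did not deviate together. DESeq2 called 912 genes from P4 to P7, 1587 from P7 to P14, 778 from P14 to P35, 101 for the mean sex difference, 272, 101, 72, 60, 89 and 111 for sex at P1, P4, P7, P14, P35 and adult, and 135 and 95 for the interactions. Voom called 1 gene for sex at P7 and 1 for the interaction from P7 to P14, and put Etnppl at 2.26 from P14 to P35 (adjusted p = 0.0243). Without libraries of the other sex's description letter, counts were 141, 93 and 47 for the steps from P4, P7 and P14, and Etnk1 was at 0.76 from P14 to P35 (adjusted p = 0.129) and 0.41 from the earlier to the later ages (0.0594). Without those whose sex-linked counts go against the label, the P4 to P7 and P14 to P35 steps called 59 genes each, with 4, 4, 5, 5 and 1 for sex from P1 to P35, and Etnk1 was at 0.73 (0.155) and 0.36 (0.111). Without libraries of few genes the steps called 1095, 1298 and 1049 genes, the P7 to P14 interaction 1, and Pemt from the earlier to the later ages passed (-0.70, adjusted p = 0.0174), as it did without all doubted libraries (-0.63, adjusted p = 0.0470), a setting chosen after seeing the data. That setting called 508 genes from P14 to P35, 10 for the mean sex difference and 4 to 5 for sex within an age. Ages without sex called 152 and 1375 genes in the steps from P4 and P7, and omitting the second run called 361 from P7 to P14 and 1 for sex at P7.

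Signs turned only in values that never passed: Pisd from P4 to P35 (-0.060 without libraries whose sex-linked counts go against the label, -0.013 without all doubted libraries), Pemt from P7 to P14 (-0.037 without few-gene libraries), the Etnk1 sex mean (-0.00281 with voom, -0.0291 without few-gene libraries) and the Etnppl interaction from P4 to P35 (-0.43 with voom). With single libraries left out, counts ran from 4747 to 5562 (P4 to P35), 31 to 635 (P4 to P7), 74 to 1430 (P7 to P14), 46 to 556 (P14 to P35), 5013 to 6372 (earlier to later ages), 4 to 7 (mean sex difference), 0 to 71 and 0 to 17 (sex at P1 and P7) and 0 to 1 (interaction from P7 to P14), and were 0 for the other sex and interaction tests. Single libraries that moved a count by over 1.5 times were P7 males 2 and 6, P4 males 2 and 4 and P4 female 2 from P4 to P7, P7 males 2 and 6, P14 males 4 and 6 and P14 female 3 from P7 to P14, P14 females 1, 2 and 3, P14 male 6, P35 females 3, 4 and 6 and P35 males 3 and 10 from P14 to P35, P1 females 1, 3 and 6 for sex at P1, and P7 male 2 and P7 female S2 for sex at P7. Values crossed 0 for Pisd from P4 to P35 (-0.18 to 0.19) and P4 to P7 (-0.10 to 0.00962), for the sex means of Etnppl (-0.15 to 0.89), Etnk1 (-0.011 to 0.084) and Pisd (-0.087 to 0.025), and for the Etnppl interaction from P4 to P35 (-1.71 to 3.99). The cause of these shifts was not tested. Depth limits Etnppl before P14, at few counts in most libraries. Pemt held 0, 6 and 4 counts in P1 female 4, P7 female 40 and P35 female 6, and 27 or more in each other library.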
